A study of Mus musculus with 26 samples.

Results

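The GTSF1 family of mouse consists of *Gtsf1*, *Gtsf1l* and *Gtsf2*, which encode small zinc finger proteins of germ cells. Its members were taken by gene name from a table of testis RNA-seq values. The rule used no measured value and found 3 of the 51124 genes in the table. GTSF1 is short for gametocyte specific factor 1. Its CHHC zinc fingers bind RNA, and the protein speeds up target cleavage (slicing) by PIWI proteins, the Argonaute proteins of the germline that are guided by PIWI-interacting RNAs (piRNAs). *Gtsf1* itself is needed in mice for transposon silencing and male fertility, and the paralogs *Gtsf1l* and *Gtsf2* are known as testis-expressed germ cell genes. In adult testis the PIWI proteins MILI (*Piwil2*) and MIWI (*Piwil1*) carry pachytene piRNAs, which appear in spermatocytes and persist in round spermatids.

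The study placed binding sites for a pachytene piRNA, piR-A, in the 3′ untranslated region of *Ythdc2* to examine slicing of an endogenous mRNA. RNA-seq was made from whole testes of 6 adult mice, with 2 mice for each of 3 genotypes. Wild-type testes gave libraries N1 and N2. The *10xPerf* line (N3 and N4) carried 10 sites fully complementary to piR-A, and the *10xBulge* line (N5 and N6) carried 10 sites with mismatches at the bases where the piRNA directs the cut. Both knock-in alleles were made with Cas9 in embryos of the B6D2F1/J hybrid and were kept by crossing homozygous animals. Ages other than adult are not given in the sources used here. The immunoprecipitation libraries and the lines with a single site were not analysed here.

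On GRCm38, *Gtsf1* (ENSMUSG00000022487.15) lies in the GENCODE annotation on the reverse strand at chr15:103402405-103430470. *Gtsf2* (ENSMUSG00000053508.9) lies on the same strand at chr15:103438957-103448469, and 8.5 kb separate the 2 genes. *Gtsf1l* (ENSMUSG00000070708.6) is on another chromosome, on the reverse strand at chr2:163087034-163087855. No other annotated gene overlaps any of them. In the RefSeq mRNAs the coding sequence of *Gtsf1* spans 7 exons and that of *Gtsf2* spans 6, whereas the whole coding sequence of *Gtsf1l* sits in 1 exon. RefSeq adds a noncoding first exon to *Gtsf1l*, so its start lies upstream of the GENCODE interval given above. The predicted proteins are of similar size, with 167 residues for GTSF1, 154 for GTSF2 and 151 for GTSF1L.

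The promoters of the 3 genes differ in base composition. Over the 300 bases that RefSeq gives around each start (250 before and 50 after, GRCm38.p6), *Gtsf1* has 57.7% GC and 13 CG dinucleotides. *Gtsf1l* has 47% GC and 2 CG, and *Gtsf2* has 44.7% GC and 3 CG. The median over 27025 mouse promoters is 52.7% GC and 7 CG, so *Gtsf1* lies above the median in both and its paralogs lie below. To show where the promoters differ in motif content, the bases from 100 to 71 before the start are given for each member, 5′ to 3′ on the gene's strand, with CCAAT boxes in capitals on either strand.
Gtsf1: ggagggtgagccaaagaaaaaggatagcct
Gtsf1l: ATTGGctaagtaaaaatggctacagCCAAT
Gtsf2: atccccacatgcaaccagactgagaaccac
These windows are chr15:103430498-103430527, chr2:163089672-163089701 and chr15:103448530-103448559, all on the reverse strand of GRCm38.p6. The *Gtsf1l* window begins and ends with a CCAAT box, in opposite orientations. Its place was chosen to start at the first of these matches, and the same bases were then taken for the other members. The difference between the windows in this motif thus follows from that choice. CCAAT (searched on both strands) occurs nowhere else in the 3 promoters, and 37.9% of all promoters hold at least 1 match. The core of the cyclic AMP response element, TGACG, has no match in any of the 3 and is in 21.0% of all promoters. The core recognised by MYB proteins, AACNG, has 2 matches in the *Gtsf1l* promoter, 1 in that of *Gtsf2* and none in that of *Gtsf1*, against a share of 80.4% of all promoters. A match of letters is a description and not evidence of binding.

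The values are normalized counts, that is, read counts per gene that the authors scaled between libraries with DESeq2. Library sums were 39.8 to 59.8 M normalized counts, and 3 reads, a floor that covers counting error only, correspond to at most 3.63. All members were above that floor in every library, and all 3 were among the 23782 genes that reached 10 normalized counts in no fewer than 2 libraries and were tested. Within genotypes the libraries correlated at Pearson's r of 0.951 to 0.958 across genes, which are not independent replicates. Differences were tested with limma on log2(normalized count + 1) over these genes, with Benjamini-Hochberg adjustment and a threshold of 0.1. With 2 mice per genotype the p-values rest on the spread between few animals.

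The family was strongly expressed in wild-type and *10xPerf* testes and was lower in *10xBulge* testes, to a different degree for each member. *Gtsf1l* fell most, *Gtsf2* fell less and *Gtsf1* fell least. In *10xPerf* no member differed from wild type at the threshold. Because whole testes were sequenced, fewer cells of a type and less RNA per cell cannot be told apart in any of these differences.

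For *Gtsf1*, the founding member, the wild-type testes gave 10454 and 8817 normalized counts, the *10xPerf* testes 8909 and 11596, and the *10xBulge* testes 3855 and 3463. Both *10xBulge* values lay below all 4 others, as they did in 33.2% of genes tested against wild type and 35.3% against *10xPerf*, while wild type and *10xPerf* overlapped. The means were 9635 ± 1157 in wild type, 10252 ± 1901 in *10xPerf* and 3659 ± 277 in *10xBulge* (SD, n = 2 each). Against wild type, *Gtsf1* fell by 1.39 on the log2 scale in *10xBulge* testes (standard error, SE, 0.39; 95% confidence interval, CI, -2.27 to -0.52; limma adjusted p = 0.0275). The ratio of means was 2.63-fold lower. The call depended on single libraries: without N1 the log2 fold change was -1.27 with a limma adjusted p of 0.115. Between the 2 knock-in lines the log2 fold change was -1.48 (limma adjusted p = 0.0203), and without N4 it was -1.29 (limma adjusted p = 0.13).

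For *Gtsf1l* the wild-type testes gave 8479 and 9364 normalized counts, the *10xPerf* testes 9663 and 12283, and the *10xBulge* testes 383 and 108. The *10xBulge* values did not come near the others, and N5 was 3.51 times N6. Means were 8921 ± 626, 10973 ± 1853 and 246 ± 194 (SD, n = 2 each) in wild type, *10xPerf* and *10xBulge*. *Gtsf1l* fell by 5.44 on the log2 scale in *10xBulge* against wild type (SE 0.57, 95% CI -6.72 to -4.17, limma adjusted p = 9.33e-05), a 36.3-fold lower mean. Against *10xPerf* it fell by 5.73 (limma adjusted p = 6.54e-05). This member had the widest gap between the 2 *10xBulge* mice, and without N5 or N6 its log2 fold change from wild type was -6.35 or -4.54.

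For *Gtsf2* the wild-type testes gave 1582 and 1783 normalized counts, the *10xPerf* testes 1985 and 1949, and the *10xBulge* testes 177 and 173. Here the 2 *10xBulge* mice were almost equal and far below the other libraries. The means were 1683 ± 142, 1967 ± 25.9 and 175 ± 2.30 (SD, n = 2 each) in the same order. Against wild type *Gtsf2* fell by 3.25 on the log2 scale in *10xBulge* (SE 0.37, 95% CI -4.09 to -2.42, limma adjusted p = 1.62e-04), which was 9.61-fold in the means. Against *10xPerf* it fell by 3.48 (limma adjusted p = 1.01e-04).

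**Figure D1:**
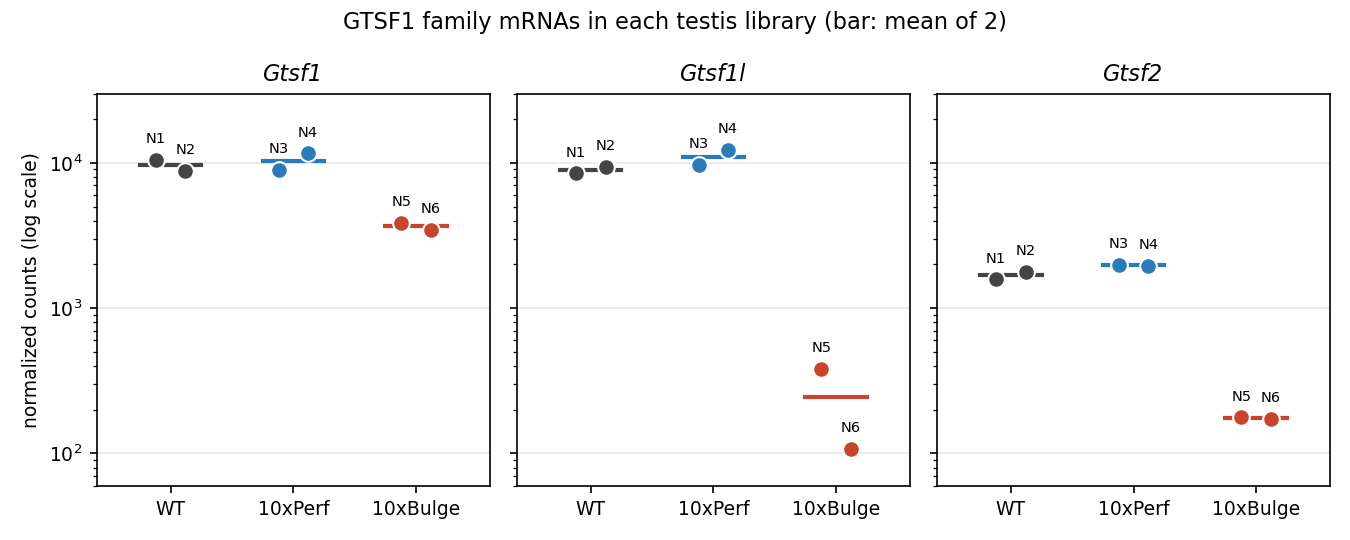
Normalized counts (log axis) of *Gtsf1*, *Gtsf1l* and *Gtsf2* in each of the 6 libraries, with points for single mice and bars for the mean of 2. The *10xBulge* libraries N5 and N6 lie below N1 to N4 for every member, by the widest margin for *Gtsf1l*, whose 2 *10xBulge* values of 383 and 108 also stand furthest apart.

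These calls stood against a broad shift in *10xBulge*. Of all genes tested, 23.0% were called lower and 11.4% higher than in wild type, and 24.1% were called lower and 12.9% higher than in *10xPerf*. Both comparisons use the same N5 and N6 libraries. Being called lower therefore does not set the family apart, and the size of the change says more. Of the 23782 genes tested, 4.84% had a lower log2 fold change against wild type than *Gtsf1l*, 11.95% had a lower one than *Gtsf2*, and 23.14% had a lower one than *Gtsf1*. The median over all genes was -0.03.

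In *10xPerf* against wild type, 0.467% of genes were called higher and 0.492% lower, with none of the 3 members among them. The log2 fold change was 0.08 for *Gtsf1* (95% CI -0.79 to 0.96, limma adjusted p = 0.962). It was 0.29 for *Gtsf1l* (95% CI -0.99 to 1.57, limma adjusted p = 0.91) and 0.23 for *Gtsf2* (95% CI -0.61 to 1.06, limma adjusted p = 0.896). These intervals hold changes in either direction, so with 2 mice per genotype the lack of a call does not show equal levels. They are not adjusted for the number of genes, and larger changes could also go uncalled. Both *10xPerf* libraries lay above both wild-type libraries for *Gtsf1l* and *Gtsf2*, a pattern that 20.2% of all genes tested showed. This comparison and that of *10xBulge* against wild type share N1 and N2.

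Levels of different genes were compared per kb of the longest coding transcript (819 nt for *Gtsf1*, 822 nt for *Gtsf1l* and 726 nt for *Gtsf2*). In wild type *Gtsf1* was at 11764 ± 1413 and *Gtsf1l* at 10853 ± 762 normalized counts per kb (SD, n = 2), with *Gtsf1* higher in N1 and *Gtsf1l* higher in N2. The order of these 2 genes was thus within their spread. *Gtsf2* was lower, at 2318 ± 196 normalized counts per kb (SD, n = 2). Among 17505 protein-coding genes tested, the level per kb placed *Gtsf1* at the 98.6th percentile, *Gtsf1l* at the 98.4th and *Gtsf2* at the 90.0th in wild type. In *10xBulge* *Gtsf1* was still at the 96.8th percentile, whereas *Gtsf1l* was at the 55.4th and *Gtsf2* at the 51.2nd.

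The make-up of the family mRNA changed accordingly. *Gtsf1* made up 50.5% and 43.7% of the summed level per kb for the wild-type mice, 42.9% and 44.5% for the *10xPerf* mice, and 86.9% and 91.9% for the *10xBulge* mice. *Gtsf1l* contributed 40.8% and 46.3% in wild type and 46.3% and 47% in *10xPerf*, but 8.6% and 2.9% in *10xBulge*. The share of *Gtsf2* went from 8.6% and 10.0% in wild type to 4.5% and 5.2% in *10xBulge*. Thus the family mRNA of *10xBulge* testes was mostly *Gtsf1*. If reads came from the shortest coding *Gtsf1* transcript (615 nt), the *Gtsf1* share would be 57.6% and 50.9% in wild type and 89.8% and 93.8% in *10xBulge*.

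Differences between members inside a library do not depend on how libraries are scaled. *Gtsf1l* minus *Gtsf1* was -0.30 and 0.09 on the log2 scale for the wild-type mice, 0.12 and 0.08 for the *10xPerf* mice, and -3.33 and -4.99 for the *10xBulge* mice. The mean difference thus moved by -4.05 from wild type to *10xBulge*. *Gtsf2* minus *Gtsf1* was -2.72 and -2.31 in wild type and -4.44 and -4.31 in *10xBulge*, a move of -1.86. *Gtsf2* minus *Gtsf1l* went the other way, from -2.42 and -2.39 to -1.11 and 0.67, so that *Gtsf2* exceeded *Gtsf1l* in N6 alone. In each case wild type and *10xBulge* did not overlap, but the share of other gene pairs that do the same was not computed. The two-sided exact permutation p was 0.333 for each, the smallest that this test can give with 2 against 2 libraries, so this test could not pass a threshold here.

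**Figure D2:**
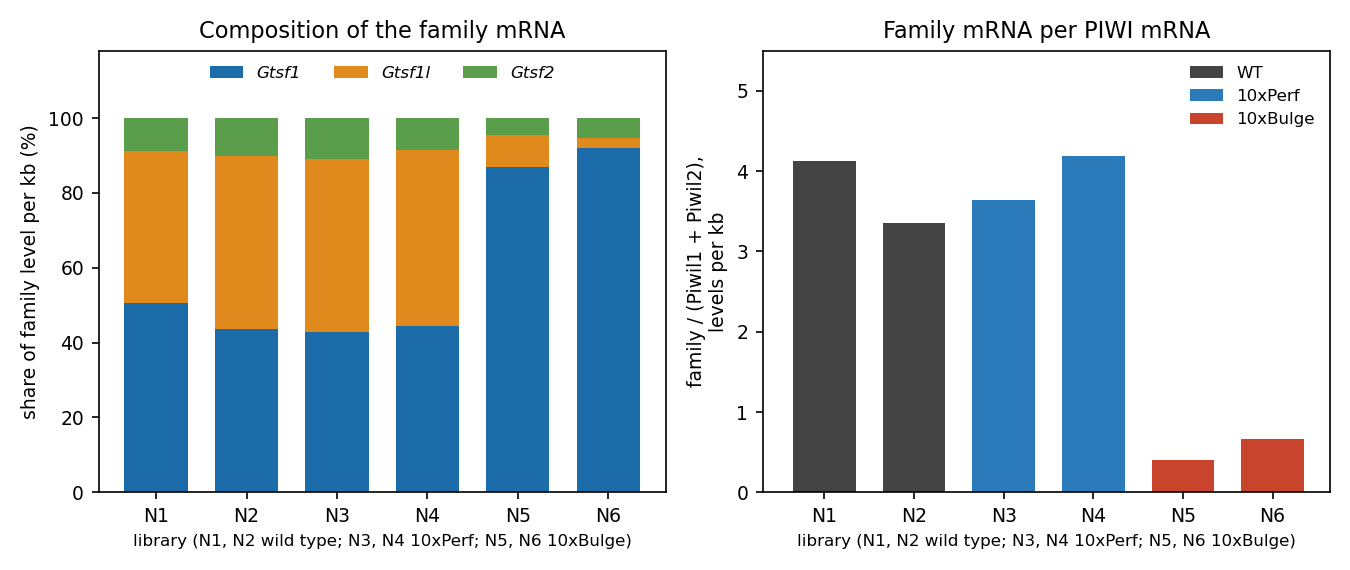
Left, the share of *Gtsf1*, *Gtsf1l* and *Gtsf2* in the summed family level per kb (%) in each library. Right, the family level per kb divided by that of *Piwil1* plus *Piwil2*, a ratio chosen after the data were seen. The *Gtsf1* share lies between 42.9% and 50.5% in N1 to N4 and is 86.9% and 91.9% in N5 and N6, and the ratio to PIWI mRNA is 3.36 to 4.19 in N1 to N4 and 0.405 and 0.668 in N5 and N6.

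Of the 3 PIWI genes, whose products GTSF1 assists, none was called lower and 1 was called higher in *10xBulge*. The shares over all genes tested were 23.0% lower and 11.4% higher. *Piwil1* was measured at 19394 and 19694 normalized counts in the wild-type mice, 21159 and 21353 in the *10xPerf* mice, and 35738 and 17380 in the *10xBulge* mice (log2 fold change from wild type to *10xBulge* 0.35, 95% CI -0.69 to 1.39, limma adjusted p = 0.618). *Piwil2* was at 6290 and 11865 in the wild-type mice, 8378 and 11175 in the *10xPerf* mice, and 22008 and 12586 in the *10xBulge* mice (log2 fold change 0.95, 95% CI -0.15 to 2.04, limma adjusted p = 0.183). Neither difference passed the threshold, and the *10xBulge* values of *Piwil1* spanned those of the other libraries. The gene called higher was *Piwil4*, which encodes the nuclear PIWI protein of fetal germ cells and was low throughout, at 46.2 and 28.0 normalized counts in the wild-type mice against 117 and 78.0 in the *10xBulge* mice (log2 fold change 1.38, limma adjusted p = 0.0967). The call of *Piwil4* ended without any 1 of N1 to N5, with no filter, with a pseudocount of 0.1, with only 2 genotypes fitted and at an adjusted p under 0.05.

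Set against these genes inside each library, *Gtsf1* minus *Piwil1* was -0.89 and -1.16 on the log2 scale for the wild-type mice, -1.25 and -0.88 for the *10xPerf* mice, and -3.21 and -2.33 for the *10xBulge* mice. *Gtsf1* minus *Piwil2* was 0.73 and -0.43 for the wild-type mice, 0.09 and 0.05 for the *10xPerf* mice, and -2.51 and -1.86 for the *10xBulge* mice. Both measures, chosen after the data were seen, were lower in N5 and N6 than in any other library (two-sided exact permutation p = 0.333 against wild type). For these pairs, too, no share over other gene pairs was computed. Summed over its members and taken per kb, the family stood at 4.13 and 3.36 times *Piwil1* plus *Piwil2* for the wild-type mice, 3.64 and 4.19 times for the *10xPerf* mice, and 0.405 and 0.668 times for the *10xBulge* mice. By this measure, also chosen after the data were seen, the testes with the mismatched sites held less family mRNA than PIWI mRNA, and the other testes held more.

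The remaining genes of the pathway were read in 4 lists by role. Beside them, 11.4% of all genes tested were called higher and 23.0% lower in *10xBulge* than in wild type. Of 11 Tudor domain and methylation factors, some of which tether PIWI proteins to germ granules, none was called in either direction in *10xBulge* against wild type (median log2 fold change 0.72, range -0.95 to 1.06). That count rested on single libraries and on scaling, since 4 were higher without N2 (median 1.28), 3 without N6 and 5 when scaled to library totals, and the median was 0.10 without N1. Of 12 biogenesis factors, 2 were called higher and none lower, with a median of 0.49. *Fkbp6*, a co-chaperone of piRNA loading, was higher by 1.07 (limma adjusted p = 0.0792), and *Exd1*, a partner of TDRD12, by 1.04 (limma adjusted p = 0.0854). Neither was called without N3 or N4, with only 2 genotypes fitted, without the mean-variance trend or at an adjusted p under 0.05, and 1 biogenesis factor was called without N1, N2, N5 or N6, against 6 when scaled to library totals. *Mybl1*, the transcription factor of pachytene piRNA precursors, had a log2 fold change of 0.07 (limma adjusted p = 0.939) and *Mael* one of -0.31 (limma adjusted p = 0.631).

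The list of 5 nuclear silencing factors was mixed, with 2 members called lower and 1 higher, against 23.0% and 11.4% of all genes. *Dnmt3l*, a cofactor of DNA methyltransferases, went from 502 and 256 normalized counts in the wild-type mice to 42.8 and 32.1 in the *10xBulge* mice (log2 fold change -3.24, limma adjusted p = 8.16e-04). *Spocd1*, which links MIWI2 to DNA methylation, went from 450 and 324 to 83.2 and 27.9 (log2 fold change -2.96, limma adjusted p = 0.00379). *Dnmt3c*, the methyltransferase of young transposon promoters, rose from 15.9 and 26.0 to 102 and 111 normalized counts (log2 fold change 2.34, limma adjusted p = 0.0089). The other genes with a CHHC finger, *Snrnp48* of the minor spliceosome and the tRNA methyltransferase gene *Trmt13*, had log2 fold changes of 0.07 (limma adjusted p = 0.955) and 0.38 (limma adjusted p = 0.658). Between the 2 knock-in lines, 2 Tudor domain and methylation factors were called higher and 1 lower in *10xBulge*, but none without N3, N4 or N5 or at an adjusted p under 0.05. Of the biogenesis factors 3 were called higher in that comparison, 0 without N3, 1 without N4 or N5 and 2 without N6. The shares over all genes tested between the knock-in lines were 12.9% higher and 24.1% lower in *10xBulge*. In *10xPerf* against wild type no gene of any of these lists was called.

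Spermatid markers fell along with the family in *10xBulge*. The marker lists were chosen with earlier results of these data known, so their counts are a description. Against wild type, 23.0% of all genes tested were called lower and 11.4% higher. All 12 round spermatid markers were called lower, and 11 or 12 under each alternative (median log2 fold change -5.05, range -8.61 to -1.33), and their summed level was 92575 and 68531 normalized counts for the wild-type mice against 7785 and 4123 for the *10xBulge* mice. All 11 elongating spermatid markers in the table were called lower (median -9.31, range -10.97 to -6.65), with sums of 1011937 and 718277 against 3510 and 1754. No marker of these lists was at 0 in any library. Of 16 spermatocyte markers, 2 were called lower and none higher (median -0.15, but 0.23 without N2, 0.25 without N5 and 0.23 when scaled to library totals). The 2 were *Pgk2* (log2 fold change -2.22, limma adjusted p = 0.00564) and *Syce2* (-1.76, limma adjusted p = 0.0216), named after their values were seen. The most abundant members, *Ldhc* and *Hspa2*, had log2 fold changes of -0.05 and -0.44 (limma adjusted p = 0.955 and 0.562). The part of these cell type differences in the family's values was not tested.

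Beside these markers the 3 members took different places. *Gtsf1l*, at -5.44, lay inside the range of the round spermatid markers, with 4 of the 12 lower and 8 higher, between *Tssk1* at -5.14 and *Tssk2* at -6.87, which encode kinases of spermatids. *Gtsf2*, at -3.25, fell less than 11 of the 12. *Gtsf1*, at -1.39, also fell less than 11 of them and was near only *Acr* (-1.33), a gene named after its value was seen. The log2 fold change of *Gtsf1* was below that of 14 of the 16 spermatocyte markers, and those of *Gtsf1l* and *Gtsf2* were below all 16. All 11 elongating spermatid markers fell more than any member.

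Markers of somatic cells went the other way. Over all genes tested, 11.4% were called higher than in wild type and 23.0% lower. Of 10 Sertoli cell markers 6 were called higher and none lower (median 1.18), with summed levels of 49241 to 71777 in N1 to N4 and 255203 and 111776 in N5 and N6. Of 7 Leydig cell markers 5 were called higher (median 1.65), with sums of 46195 to 81755 and of 312374 and 148720. Of 7 macrophage markers 5 were called higher (median 1.53), with sums of 3609 to 6620 and of 13468 and 8710. These counts moved with single libraries: Sertoli cell markers called higher numbered 1 without N1, N3, N4 or N5, 2 without N2 and 8 without N6, Leydig cell markers 1 without N1 and 2 without N5, and macrophage markers 2 without N1 or N2 and 3 without N5. Of 10 spermatogonial markers 2 were called higher and 1 lower (median 0.58), with 1 higher without N1, 4 higher without N6 and none lower without N1, N2 or N5, at a threshold of 0.05 or when scaled to library totals. With all libraries, none of 5 peritubular and vessel markers was called (median 0.35).

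**Figure D3:**
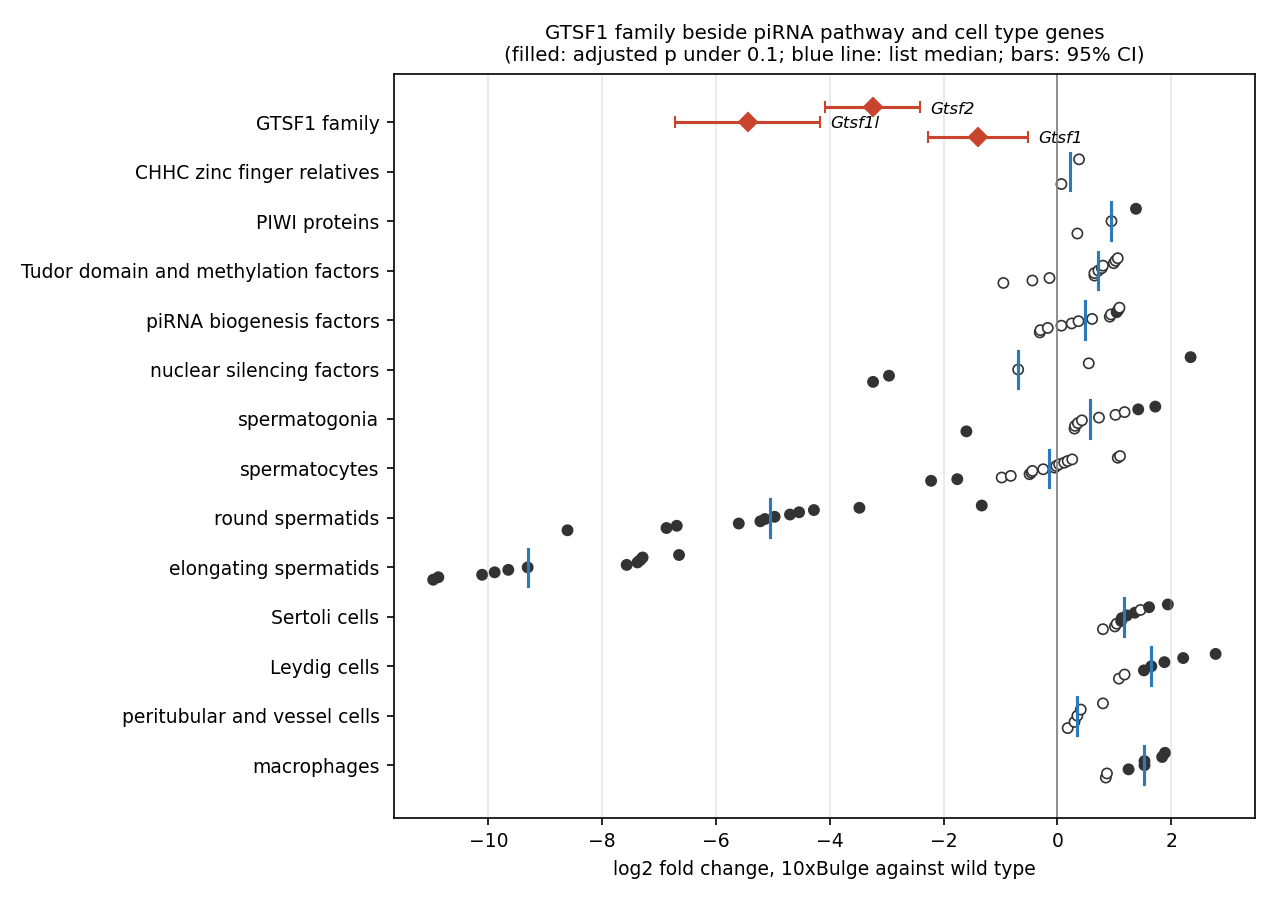
Log2 fold change of *10xBulge* against wild type (x axis) for the 3 family members (red diamonds with 95% confidence intervals) and for each gene of the lists (circles, filled where the adjusted p was under 0.1, with the list median as a blue line). The members spread from -5.44 to -1.39, between the spermatocyte median of -0.15 and the elongating spermatid median of -9.31, whereas PIWI, Tudor and biogenesis genes sit mostly above 0.

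The 2 *10xBulge* mice differed in spermatid markers, and the members differed in how far they followed that gap. Across genes this pair correlated at 0.951, against 0.956 in wild type and 0.958 in *10xPerf*. Other pairs had gaps too, with log2 medians of -1.2 for Tudor domain and methylation factors (N1 to N2) and 0.86 for Leydig cell markers (N4 to N3). Their round spermatid medians were smaller, at 0.07 and 0.24. N5 exceeded N6 by 1.81 on the log2 scale for *Gtsf1l*, by 0.15 for *Gtsf1* and by 0.03 for *Gtsf2*. Round spermatid markers were higher in N5 for 11 of 12, with a median of 1.24, and all 11 elongating spermatid markers were higher in N5, with a median of 0.81. Over all genes tested the median was 0.15. The gap of *Gtsf1l* was thus within the range of the round spermatid markers (-0.24 to 2.14), and *Gtsf1* and *Gtsf2* were near the median of all genes. Over 12426 genes, the ratio of N5 to N6 also rose with GC content of the transcript (Spearman's rho of 0.518). The same rho was 0.615 for N1 to N2 in wild type and -0.242 for N3 to N4 in *10xPerf*, so this was not particular to the *10xBulge* pair. The part of GC content in these differences was not tested, and removal of the GC trend moved no member's *10xBulge* call.

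Genes with profiles most like each member were ranked by the root mean square difference of log2 values, centred on the gene mean, over the 6 libraries and 16477 named protein-coding genes. Nearest to *Gtsf1* were *Ripor2* (0.086), *Rap1gap2* (0.11), *Mbd2* (0.116), *Fam186a* (0.119) and *Chia1* (0.119). *Ripor2*, for example, was at 589 and 472 normalized counts in the wild-type mice, 541 and 729 in the *10xPerf* mice, and 225 and 186 in the *10xBulge* mice. Nearest to *Gtsf1l* were *Akap3* (0.121), which encodes an anchoring protein of the sperm tail, *Sh3d21* (0.138), *Klhl10* (0.148), a ubiquitin ligase adaptor gene of spermatids needed for male fertility, *Prss54* (0.177) and *Tex33* (0.184). *Akap3* was at 28841 and 35258, 38389 and 47046, and 1185 and 398 normalized counts in the same order.

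Nearest to *Gtsf2* were *Cldn34a* (0.128), *Tmod1* (0.166), *Tm4sf19* (0.18), *Tex28* (0.19) and *Mlf1* (0.193). Of these *Mlf1* was the most abundant, at 8036 and 11071 normalized counts in the wild-type mice, 14239 and 12839 in the *10xPerf* mice, and 1241 and 1346 in the *10xBulge* mice. The likeness of *Tex28* and *Tm4sf19* rested on few reads. In N5 and N6 *Tex28* was at 2.7 and 1.91 normalized counts, under the floor of 3 reads (2.732 and 2.902), and *Tm4sf19* was at 7.24 and 5.82. No member was among the 5 nearest genes of another. From *Gtsf1*, *Gtsf2* ranked 7043rd at a distance of 0.93 and *Gtsf1l* 15903rd at 2.02. From *Gtsf1l*, *Gtsf2* ranked 797th at 1.171 and *Gtsf1* 2102nd. From *Gtsf2*, *Gtsf1* ranked 1381st and *Gtsf1l* 2369th, so the ranks depended on the member from which they were taken.

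The neighbours of *Gtsf1* and *Gtsf2* on the chromosome were examined because the 2 paralogs lie side by side. *Nckap1l*, which encodes a blood cell subunit of the WAVE actin regulator, begins 5.3 kb beyond *Gtsf2* and runs in the opposite direction. Its level was 1973 and 3092 normalized counts in the wild-type mice, 3103 and 3042 in the *10xPerf* mice, and 401 and 282 in the *10xBulge* mice (log2 fold change -2.87, 95% CI -3.80 to -1.95, limma adjusted p = 7.16e-04). Its fall was close in size to that of *Gtsf2*, and was opposite in direction to the macrophage markers. The cause of its fall was not tested, and 23.0% of all genes tested were called lower. *Pde1b*, a phosphodiesterase gene beyond *Nckap1l*, was lower by the same measure (log2 fold change -1.41, limma adjusted p = 0.0377), but was not called without N1, N2 or N6.

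On the other side of *Gtsf1*, *Itga5*, an integrin gene, rose from 157 and 133 normalized counts in the wild-type mice to 536 and 388 in the *10xBulge* mice (log2 fold change 1.65, limma adjusted p = 0.0194). *Zfp385a*, which lies beyond it, had a log2 fold change of -0.91 that missed the threshold (limma adjusted p = 0.116) and passed it under upper quartile scaling or with the GC trend removed. Around *Gtsf1l* no neighbour was called lower. *Mybl2*, a MYB family gene that ends 2.3 kb from *Gtsf1l*, was at 365 and 424 normalized counts in the wild-type mice and 451 and 340 in the *10xBulge* mice (log2 fold change -0.01, limma adjusted p = 0.995). *Ift52* was higher by 1.00 (limma adjusted p = 0.0994), a call that ended without N1, N3, N4, N5 or N6, and *Tox2* and *Jph2* had log2 fold changes of -0.20 and -0.08 (limma adjusted p = 0.766 and 0.94).

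**Figure D4:**
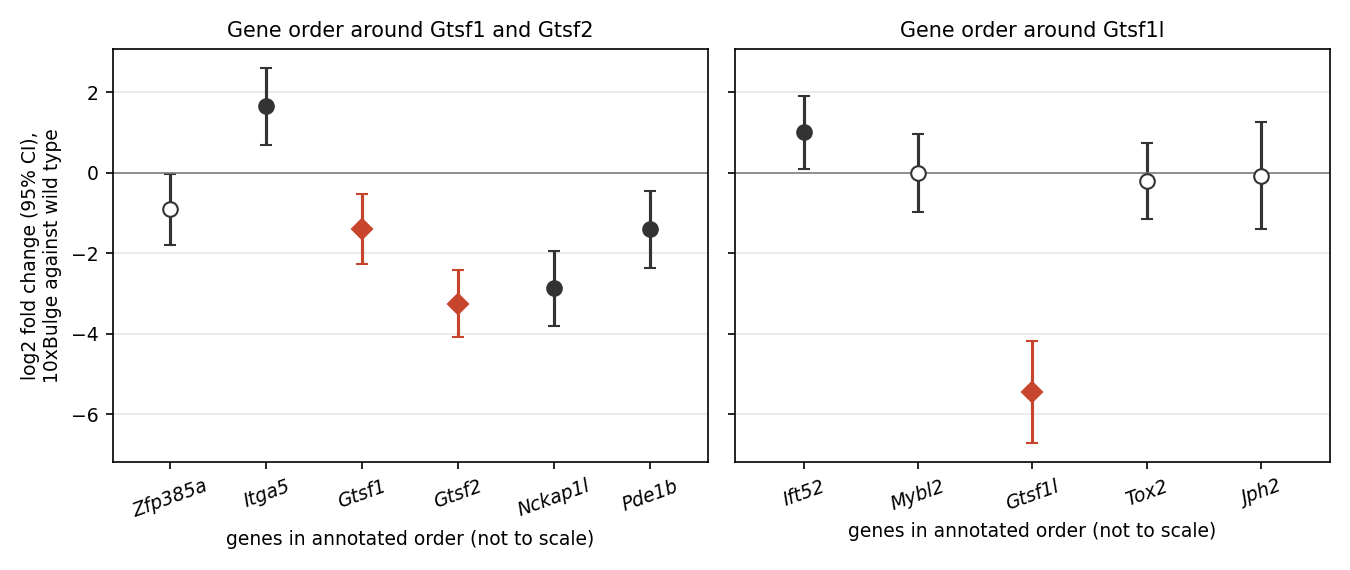
Log2 fold change of *10xBulge* against wild type (y axis, with 95% confidence intervals) for the family members (red diamonds) and the protein-coding genes on either side, in their annotated order and not to scale. Filled symbols had an adjusted p under 0.1. *Gtsf1* (-1.39), *Gtsf2* (-3.25), *Nckap1l* (-2.87) and *Pde1b* (-1.41) were each called lower, as were 23.0% of all genes tested. They stand side by side, but whether position bears on their levels was not tested. *Itga5* (1.65), next to *Gtsf1* on the other side, and *Ift52* (1.0) were called higher, as were 11.4% of all genes tested. The calls of *Gtsf1*, *Pde1b* and *Ift52* depended on single libraries. *Gtsf1l* (-5.44) is the only gene called lower in its panel.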

How the data were processed

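Testis RNA-seq libraries of 6 mice were analysed by gene. The authors assigned reads with salmon, with its GC correction, to GRCm39 transcripts and deposited DESeq2-normalized counts per gene, a signal per library that is not whole reads. The log2 fold changes and the adjusted p-values that the authors also deposited were not used. No column was left without a library (0 unmapped).

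Genes that reached 10 normalized counts in no fewer than 2 libraries were fitted with limma 3.58.1 (R 4.3.3) on log2(value + 1), with 1 coefficient for each genotype, a variance trend over the mean, and a spread pooled over the 6 libraries. Fold changes on this scale understate the change of low genes. The procedure was run on simulated data in which few genes changed. That run does not cover a shift as broad as the one in *10xBulge*. A count test was not run, as the values are normalized. Library numbers pair no mice between genotypes. The members and lists were chosen with earlier results of these data known. Named genes are the members, the pathway lists, the 2 most abundant markers of each cell type, the 5 most similar profiles and the 2 neighbours on each side. The markers *Acr*, *Pgk2* and *Syce2* were named after their values were seen. Exact permutation tests used scipy 1.17.1. GENCODE and RefSeq annotation on GRCm38 gave gene positions, lengths and promoters. Alternatives rescaled the values to library totals, to upper quartiles or by a trimmed mean of log ratios, changed the filter, pseudocount, fit or threshold, removed a trend with GC content, or left out a library.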

Additional observations from a re-analysis of the deposited data

How the results depend on the processing

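All *10xBulge* differences of the 3 members kept their direction under every alternative run. Over 11 other settings of scaling, filter, pseudocount, fit, GC content and threshold, the change from wild type (log2) was -1.40 to -1.01 for *Gtsf1*, -5.45 to -5.06 for *Gtsf1l* and -3.30 to -2.87 for *Gtsf2*, with limma adjusted p up to 0.0606, 0.00368 and 0.00331. With each library left out in turn it was -1.52 to -1.27, -6.35 to -4.54 and -3.34 to -3.17, and against *10xPerf* it was -1.67 to -1.29 for *Gtsf1*. Where a genotype kept 1 library, that library was assumed to vary like the others. *Gtsf1* was no longer called without N1 (against wild type) or N4 (against *10xPerf*). In *10xPerf* against wild type, removal of the GC trend turned the sign to -0.073 for *Gtsf1* and -0.064 for *Gtsf2*, and leaving out each library gave -0.11 to 0.27 for *Gtsf1*, with -0.041 without N2. None of these passed the threshold, and the cause was not tested.

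Counts over all genes moved more. For *10xPerf* against wild type, 111 genes higher and 117 lower became 73 and 77 when scaled to library totals, 44 and 53 when every library had to reach 10, 40 and 65 with a pseudocount of 0.1, 214 and 190 with only the 2 genotypes fitted, 63 and 72 at an adjusted p under 0.05, and 11 to 204 and 10 to 186 with each library left out. For *10xBulge* against wild type, 2712 higher became 5777 when scaled to library totals, 1512 in a fit of just these genotypes, 1370 at 0.05 and 636 to 2858 with each library left out, and 5466 lower became 2926 when every library had to reach 10 and 3919 to 5574 with each library left out. Against *10xPerf*, 3077 higher became 5108 when scaled to library totals, 1725 at 0.05 and 418 to 3286 with each library left out, and 5729 lower became 3064 under the same filter and 3730 to 5812 with each library left out. Scaling to library totals put the overall median change (log2) at 0.346 against wild type and 0.175 against *10xPerf*, and the share of calls that were higher from 33.2% to 54.7% and from 34.9% to 49.5%. Tests that need whole counts (DESeq2) were not run. No paired analysis was possible because the library numbers are not shared between genotypes.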
